A study of Mus musculus with 2 samples.

Results

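The PIWI-interacting RNA (piRNA) pathway and the chromatoid body were examined in testes of 17 day old mice through the probe sets whose only gene symbol in the platform annotation was one of 10 genes named for that pathway or that granule. Of these, Piwil1, Piwil2, Ddx4, Ddx25, Mov10l1, Tdrd1 and Tex19.1 had 1 probe set each, which gave 7 members of the 12393 genes with such a symbol. Tdrd6, Tdrkh and Mael had none and are not analysed here. The arrays compared wild type with UBR2-/- testes, the latter lacking UBR2, which marks proteins for breakdown by their N-terminal residue. Both groups came from mice of mixed 129SV and C57BL background, with 2 testes of littermates named for each genotype and 1 array per genotype (n = 1). Whether the 2 testes were pooled, and which part of Ubr2 the mutant allele lacks, is not stated in the labels.

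In male germ cells, PIWI proteins bind piRNAs, a class of small RNAs known for silencing transposons and for cutting other transcripts. Piwil2 (MILI) acts from early germ cell stages on, whereas Piwil1 (MIWI) is known to be made from the pachytene stage of meiosis on and to bind the abundant pachytene piRNAs. Tudor domain proteins dock on methylated arginines of PIWI proteins, and RNA helicases process or carry the RNA. Many of these proteins gather in perinuclear granules, among them the cement between mitochondria and, in round spermatids, the chromatoid body. At 17 days the first wave of spermatogenesis has reached pachytene spermatocytes but hardly any spermatids.

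Signals are the authors' linear probe set intensities, and the floor, set at the 40th percentile, was 24.4 for wild type and 24.7 for the UBR2-/- array. A log2 ratio is UBR2-/- over wild type after lower signals were raised to the floor, and the comparison covers 8091 genes whose mean signal reached the mean floor. A single array per genotype allows neither a replicate check nor a test, so each difference describes these arrays only. The array labels fitted the targeted gene as far as 1 probe set shows, since Ubr2 had a signal of 57.2 in wild type and 14.3, below the floor, in UBR2-/-, at least 2.32-fold lower. As a check of the labelled tissue, 13 of 13 early meiotic and 12 of 12 Sertoli cell markers with a probe set passed the floor rule, while 8 of 9 spermatid markers did not. Since 8091 of all 12393 genes passed this rule, passing it is a weak check. Where a gene had several probe sets, their disagreement gave an SD for the log2 ratio of 1 probe set. It was 0.13 at mean signals above 289, 0.17 between 106 and 289 and 0.24 below 106, which leaves out all error between arrays or animals. By mean signal Tdrd1 lies in the middle of these ranges and the other members in the highest. The UBR2-/- signals of Piwil1 and Tdrd1 alone, 78.5 and 102.3, fall in the lowest range, so the SD of their range may be too small for them. The median log2 ratio of all compared genes was 0.07 on the deposited scale.

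The members were chosen with earlier results of these data known, so the shares set beside their counts are descriptions only. Among the members, 3 of 7 were lower in UBR2-/- by 2-fold or more, against 3.52% of all compared genes. None of the 7 was at least 2-fold higher, against 0.346% of all compared genes, and 4 lay between. The 3 lower genes were Piwil1, Ddx25 and Tdrd1. A log2 ratio below 0 was seen for 6 of 7 members and for 41% of all compared genes, and the median over the members was -0.77. All 7 passed the floor rule, which 8091 of all 12393 genes passed. The 7 were above the floor on both arrays, so with this floor no member is given as a bound.

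**Figure D1:**
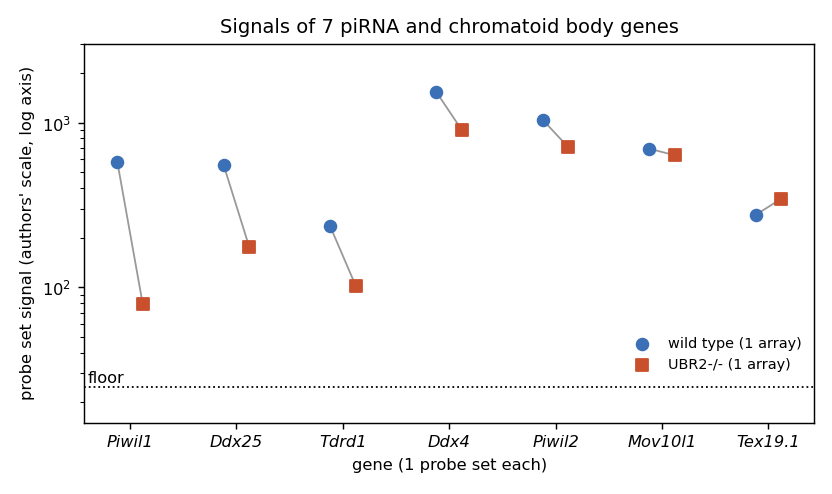
Probe set signal (log axis, authors' scale) of the 7 members on the wild type array (circles) and the UBR2-/- array (squares), 1 array each, with the floor dotted. Piwil1, Ddx25 and Tdrd1 lie far apart between the arrays, Mov10l1 lies close, and Tex19.1 is the 1 gene with the higher signal in UBR2-/-.

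The PIWI genes were far apart from each other in their difference between the genotypes. Piwil1, which encodes the PIWI protein of pachytene spermatocytes and round spermatids, had a signal of 578.5 in wild type and 78.5 in UBR2-/-. It was 7.37-fold lower, a log2 ratio of -2.88, and its UBR2-/- signal was still 3.18 times the floor. Of the 8091 compared genes, 25 had a lower ratio than Piwil1. Piwil2, whose protein is the PIWI partner of earlier germ cells, gave 1036 in wild type and 705.8 in UBR2-/-. This is 1.47-fold lower, a log2 ratio of -0.55. The log2 ratio of Piwil1 was 2.33 below that of Piwil2, a difference that no common scaling of the arrays can alter. Among the other Argonaute proteins, Ago2 was just above the floor at 27.2 and 29.2, with a log2 ratio of 0.10.

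The RNA helicases were likewise graded. Ddx25 (GRTH), a DEAD box helicase that spermatids need to complete their development, had signals of 550.8 in wild type and 175.6 in UBR2-/-. It was 3.14-fold lower, with a log2 ratio of -1.65, and 1.40% of compared genes had a lower ratio. Ddx4 (MVH, the mouse VASA protein), a DEAD box helicase found in germ cells from the embryo on, had 1527.4 in wild type and 896.5 in UBR2-/-. It was 1.70-fold lower, with a log2 ratio of -0.77, and 5.12% of compared genes had a lower ratio. Mov10l1, a helicase that binds piRNA precursors and feeds them into processing, had signals of 693.2 and 632.4, a log2 ratio of -0.13. That is about the SD of 1 bright probe set, and 27.8% of compared genes had a lower ratio. So among the helicases Ddx25 lay past 2-fold, Ddx4 lay short of it and Mov10l1 lay close to all genes.

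The remaining members went opposite ways. Tdrd1, a Tudor domain scaffold that binds PIWI proteins and is needed for a normal piRNA supply, had signals of 234.9 and 102.3. It was 2.30-fold lower, with a log2 ratio of -1.20. Tex19.1, a mammal-specific gene known for retrotransposon control in germ cells and for a protein that binds UBR2, had signals of 274.7 in wild type and 344.6 in UBR2-/-. It was 1.25-fold higher, with a log2 ratio of 0.33, and 80.2% of compared genes had a lower ratio. The log2 ratio of Tex19.1 was 3.21 above that of Piwil1, which spans the range of the members. Tex19.1 lay above 0 under the deposited scaling and under 8 of 9 alternatives, but scaling on the spike-in controls took it to -0.03.

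**Figure D2:**
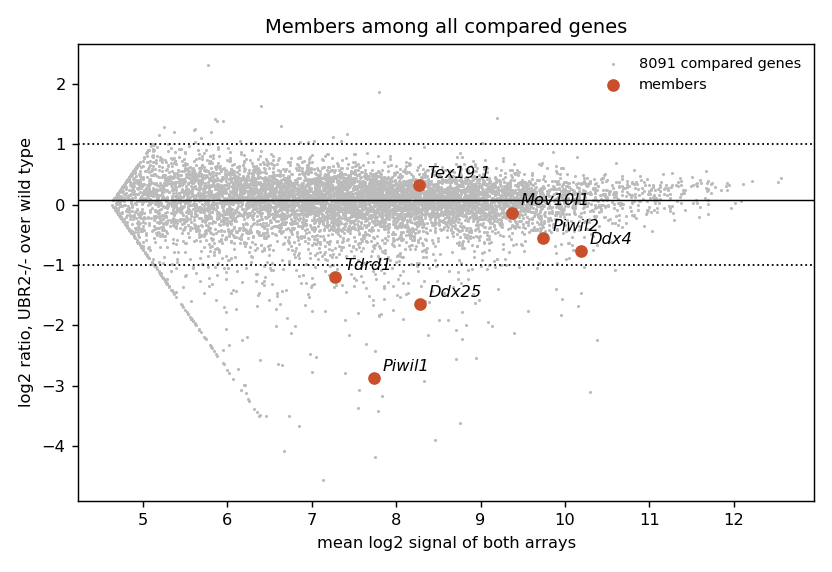
Log2 ratio of UBR2-/- over wild type against the mean log2 signal of both arrays for 8091 compared genes (grey) and the 7 members (red). Dotted lines mark 2-fold and the solid line the median of all genes at 0.07; Piwil1 at -2.88, Ddx25 at -1.65 and Tdrd1 at -1.20 lie below the lower dotted line.

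The order of the members from lowest to highest log2 ratio was Piwil1, Ddx25, Tdrd1, Ddx4, Piwil2, Mov10l1 and Tex19.1. With 1 array each, it cannot be said which neighbours differ beyond the spread of animals. At 1.5-fold, 4 of 7 members were lower, with Ddx4 added, against 7.71% of all compared genes, and 0 were higher, against 4.25%. At 3-fold, 2 of 7 were lower, Piwil1 and Ddx25, against 1.5%, and 0 were higher, against 0.0371%.

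Markers of late spermatocytes were lower on the same array. The marker lists, like the members, were chosen with earlier results of these data known. Of 15 compared markers of pachytene and later spermatocytes (Piwil1 left out), 11 were at least 2-fold lower (3.52% of all compared genes) and 15 lay below 0 (41%). Their log2 ratios ran from -4.57 to -0.68 with a median of -1.76, and their summed signal was 11511.8 in wild type and 2912.6 in UBR2-/-. Pgk2, Adam3, Acr, Insl6 and Ccna1 of this list were below the floor in UBR2-/-, so their ratios are bounds. Calm4 and H1f6 of this list were below the floor rule. Of 13 early meiotic markers 1 was at least 2-fold lower, the median was -0.06 and the summed signal was 13980.6 and 13236.5. Of 10 spermatogonia markers 1 was at least 2-fold lower, the median was 0.14 and the summed signal was 3652.1 and 3793.4. Of 12 Sertoli cell markers 1 was at least 2-fold lower, Amh with signals of 59.7 and 25.5, while the median was 0.26 and the summed signal 10263.4 and 13032.2. The 1 spermatid marker that passed the floor rule, the protamine gene Prm1, was dim and went the other way from the late spermatocyte markers, with 35.3 in wild type and 94 in UBR2-/- (2.66-fold higher). This was the brightest of its 3 probe sets, of a kind shared between transcripts, and its wild type signal was 1.45 times the floor. The others are not shown. Leydig cell, peritubular myoid and macrophage markers had medians of 0.29 over 5 genes, 0.53 over 6 and -0.06 over 7, with 0 past 2-fold. In whole testis RNA, fewer cells of a type and less RNA per cell cannot be told apart, and the part of these shifts in the members' values was not tested.

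Set against these markers, the members occupied different ranges. The log2 ratio of Piwil1 was lower than that of 11 of the 15 late spermatocyte markers, and 1.12 below their median. The 11 include Pgk2, Acr, Insl6 and Ccna1, whose ratios are bounds, so this count and the median depend on the floor. Ddx25 was lower than 6 of the 15 and Tdrd1 lower than 5, with log2 ratios 0.11 and 0.56 above the median of those markers. Both counts include Ccna1, whose bound of -1.07 came from signals of 52 and 9.3, so they too depend on the floor. Ddx4 was lower than 2 of the 15, while Piwil2, Mov10l1 and Tex19.1 were above all 15. Piwil1 and Ddx25 were lower than all 13 early meiotic and all 10 spermatogonia markers. Tdrd1 was lower than all 10 spermatogonia markers and 12 of the 13 early meiotic ones, the exception being Spo11, which cuts DNA to start recombination, at -1.27. Mov10l1 lay 0.07 below the median of the early meiotic markers, with 4 of the 13 lower and 9 higher.

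**Figure D3:**
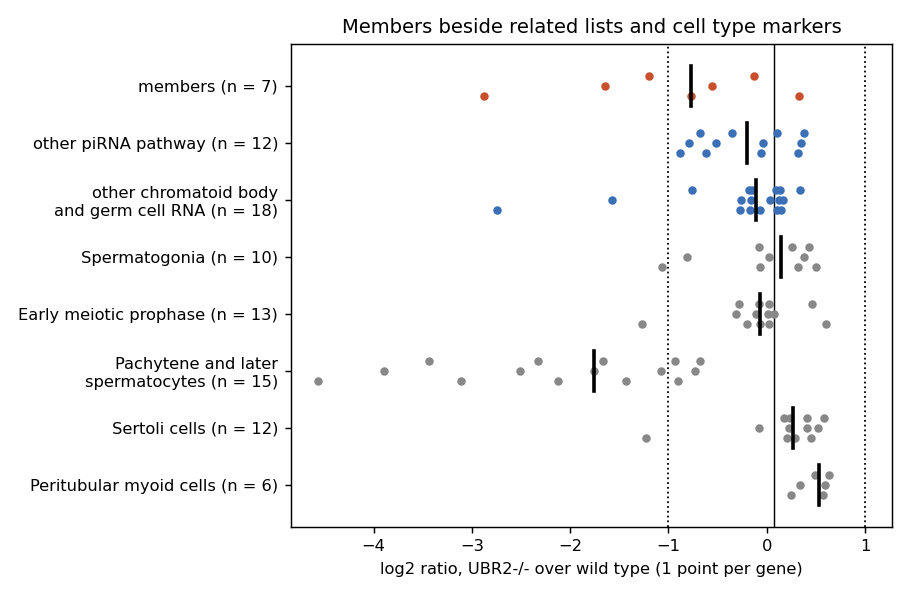
Log2 ratio of UBR2-/- over wild type, 1 point per compared gene, for the members, 2 related gene lists and 5 marker lists; thick bars are medians, dotted lines mark 2-fold and the thin line is the median of all genes. The members spread from -2.88 to 0.33, late spermatocyte markers from -4.57 to -0.68, and early meiotic markers have a median of -0.06. Genes below the floor on 1 array are plotted at a bound.

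Other genes of the piRNA pathway had a median closer to 0 than that of the members. Of 24 listed, 14 had a probe set and 12 were compared. At least 2-fold lower were 0 of these 12, against 3.52% of all compared genes, and 0 were higher, against 0.346%. With so few genes, counts of 0 are near these shares. The median log2 ratio of the 12 was -0.21, 8 were below 0 and 4 above, and the range was -0.88 to 0.38. Mybl1 (A-MYB), the transcription factor known to switch on pachytene piRNA genes and several genes of the pathway, was the lowest. Its signals were 89.2 in wild type and 48.4 in UBR2-/-, 1.84-fold lower. With an SD of 0.24 for 1 probe set at this brightness, its rank below Stk31 is not certain. The Tudor domain genes Stk31, Tdrd7 and Rnf17 had log2 ratios of -0.79, -0.62 and -0.52, and Asz1 (GASZ), which holds the cement between mitochondria together, had -0.68. The other probe sets of Stk31, Rnf17 and Asz1 had -0.81, -0.28 and -0.42. Tdrd3, a Tudor domain gene of many tissues, and the chaperone gene Hsp90aa1 were near 0, at -0.04 and -0.05 (the other probe sets of Hsp90aa1 had -0.01 and -0.40), and Morc1, needed for transposon silencing in the male germ line, had 0.10. Highest was Tex15, known for meiotic recombination and piRNA-directed DNA methylation, with signals of 965 and 1255.9 and a log2 ratio of 0.38. Dnmt3l and Gtsf1l did not pass the floor rule.

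Among other chromatoid body and germ cell RNA genes, 2 of 18 compared were at least 2-fold lower, against 3.52% of all compared genes. At least 2-fold higher were 0, against 0.346%, and the median was -0.11. Papolb (TPAP), the cytoplasmic poly(A) polymerase of the testis, had a signal of 165.6 in wild type and 21.8, below the floor, in UBR2-/-, and was at least 6.70-fold lower. Ybx2 (MSY2), which stores messenger RNA in spermatocytes and spermatids, gave 874.4 in wild type and 292.9 in UBR2-/-, which is 2.99-fold lower. The other 16 lay within 2-fold, among them Tsnax, the partner of translin, at 0.04, the RNA decay helicase Upf1 at -0.07 and Dnd1, needed for germ cell survival, at 0.10. Dazl, a germ cell RNA-binding protein present from early stages on, had 2509.1 and 2749.7, a log2 ratio of 0.13 with 0.20 in its other probe set. The log2 ratio of Ddx4, a gene likewise restricted to germ cells, was 0.90 below that of Dazl. The small RNA enzyme Dicer1 had 0.16 in its brighter and 0.60 in its other probe set. The spermatid kinase genes Tssk1 and Tssk2, their substrate gene Tsks, and Smg6 did not pass the floor rule.

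Close relatives of the members were read beside them, chosen after their values were seen. Mov10, the widely expressed relative of Mov10l1, had signals of 100.6 and 151.6 and a log2 ratio of 0.59, which is 0.72 above that of Mov10l1. Tex19.2, the neighbouring copy of Tex19.1, had 451.9 and 456.1, a log2 ratio of 0.01 against 0.33. The DEAD box gene Ddx19b, of the family nearest to Ddx25, had -0.99 by its brightest probe set and -0.58 and -1.02 by its others. Ddx3x, an X-linked helicase of the family nearest to Ddx4, had 0.33, with 0.29 and 0.44 in its other probe sets, while its autosomal testis copy D1Pas1 had -0.76 and -0.96, next to -0.77 for Ddx4. Each of these pairs was read by separate probe sets, and cross-hybridization between relatives was not tested.

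Promoter windows from RefSeq, running from 250 bases before to 50 bases after a gene's start on GRCm38.p6, were available for 6 of the 7 members, all but Piwil2. Tdrd1 had 3 windows, and the one whose start lies nearest the outer end of the gene was used. They are shown for the 3 genes at least 2-fold lower and for Tex19.1, the 1 member above 0, to set the letters beside the opposite ratios. Capitals mark CACGTG and AACTG, a core of the MYB motif, searched on both strands (AACTG reads CAGTT on the other strand). The matches do not overlap. CACGTG is the only form of the E-box that was searched for, and E-box means that form here.
Piwil1, chr5:128735996-128736295, plus strand: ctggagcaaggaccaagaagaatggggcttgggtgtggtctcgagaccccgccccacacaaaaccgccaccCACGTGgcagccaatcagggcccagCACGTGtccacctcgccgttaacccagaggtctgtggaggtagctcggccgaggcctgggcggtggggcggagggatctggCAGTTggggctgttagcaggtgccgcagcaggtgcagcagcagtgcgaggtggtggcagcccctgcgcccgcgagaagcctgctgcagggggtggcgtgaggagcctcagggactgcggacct
Ddx25, chr9:35558421-35558720, minus strand: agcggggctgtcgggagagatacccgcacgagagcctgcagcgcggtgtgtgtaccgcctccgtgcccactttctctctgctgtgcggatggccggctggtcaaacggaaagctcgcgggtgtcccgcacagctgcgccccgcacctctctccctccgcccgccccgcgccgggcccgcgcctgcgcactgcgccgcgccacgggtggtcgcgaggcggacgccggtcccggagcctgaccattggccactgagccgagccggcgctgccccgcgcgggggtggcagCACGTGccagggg
Tdrd1, chr19:56825959-56826258, plus strand: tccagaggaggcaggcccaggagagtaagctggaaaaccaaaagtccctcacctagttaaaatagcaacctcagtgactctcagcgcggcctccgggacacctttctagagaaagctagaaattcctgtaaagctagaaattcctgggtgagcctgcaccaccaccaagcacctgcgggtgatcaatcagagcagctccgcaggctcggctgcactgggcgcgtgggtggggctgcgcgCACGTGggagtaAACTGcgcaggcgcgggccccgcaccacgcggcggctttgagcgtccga
Tex19.1, chr11:121145893-121146192, plus strand: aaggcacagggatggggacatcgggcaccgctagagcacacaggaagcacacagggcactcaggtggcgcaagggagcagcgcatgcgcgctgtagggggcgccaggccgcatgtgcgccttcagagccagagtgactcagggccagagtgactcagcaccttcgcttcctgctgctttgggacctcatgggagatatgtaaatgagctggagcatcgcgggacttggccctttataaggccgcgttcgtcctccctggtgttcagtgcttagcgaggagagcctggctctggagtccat

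The window of Piwil1 held CACGTG at positions 72 and 97, counted from 1 at its 5' end, and the MYB core on the other strand at position 178. Ddx25 held the E-box at position 288 and no MYB core, and Tdrd1 held the E-box at position 240 and the MYB core at position 252. Of the 2 other windows of Tdrd1, 1 held both motifs and 1 held the MYB core without the E-box. Tex19.1 held neither. Ddx4 and Mov10l1, which are not shown, held the E-box at positions 222 and 5 and no MYB core. CACGTG was thus in 5 of 6 windows, against 11.0% of 6654 compared genes with a window. Of these genes, 5134 had a CpG ratio (observed over expected) of at least 0.6, and 12.1% of the 5134 held CACGTG. Piwil1 and Tex19.1, at 0.54 and 0.58, lie below that cut, so the last share is of an unlike set. The MYB core was in 2 of 6, against 36.2% of compared genes. The E-box was present both in Piwil1, the lowest member, and in Mov10l1, close to all genes, and it was picked with the sequences in view. A match is a run of letters and no measured binding.

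The CpG ratio of the windows was 0.54 for Piwil1, 0.97 for Ddx25, 0.73 for Tdrd1, 0.98 for Ddx4, 0.67 for Mov10l1 and 0.58 for Tex19.1, against a median of 0.79 for compared genes. The lowest and the highest member by log2 ratio, Piwil1 and Tex19.1, thus had the lowest CpG ratios of the 6. Their G and C content was 67.7% and 61.3%, with a median of 61.3% for compared genes. CCAAT, the CCAAT box, was in 4 of 6 windows, against 39.2% of compared genes. TGACGTCA, the full cyclic AMP response element, was in 0 of 6, against 3.38%. TATAAA was in 1 of 6, against 6.66%, and this was Tex19.1, on the other strand at position 232.

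Each member was recomputed under 9 other ways of scaling, flooring or reading the arrays. Piwil1 ran from -3.23 to -2.69, Ddx25 from -2.00 to -1.60 and Tdrd1 from -1.55 to -1.12, so these 3 stayed at least 2-fold lower throughout. The value of -2.69 for Piwil1 is a bound, since the floor at the 60th percentile lies above its UBR2-/- signal. Ddx4 ran from -1.12 to -0.76 and passed 2-fold with spike-in scaling alone. Piwil2 ran from -0.91 to -0.55, and Mov10l1 from -0.48 to -0.12. Tex19.1 lay above the median of all genes under all 9. The bacterial and phage spike-in controls had a median log2 ratio of 0.35 over 42 probe sets, so scaling on them lowers the ratio of every gene above the floor by that amount, the members included.

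**Figure D4:**
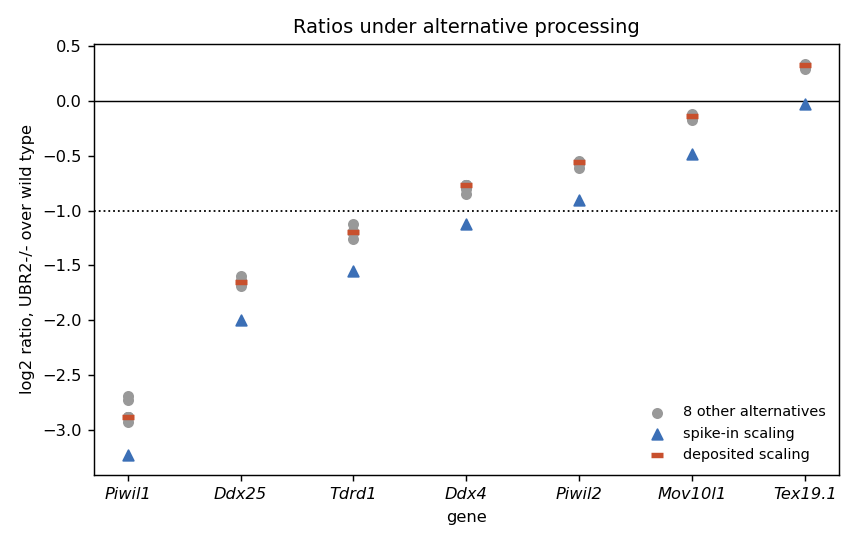
Log2 ratio of UBR2-/- over wild type for each member under the deposited scaling (red bars), scaling on spike-in controls (blue triangles) and 8 other alternatives (grey). The order of the members is kept in each, and the largest move is the shift of 0.35 with spike-in scaling, which puts Ddx4 past the dotted 2-fold line and Tex19.1 at -0.03.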

How the data were processed

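Testis RNA of 1 wild type and 1 UBR2-/- sample was hybridized to Affymetrix 430A 2.0 mouse arrays, per the labels. The deposited values are linear intensities, 1 signal per probe set, and the submitters' processing notes name MAS5 with no version; settings and detection calls: not given in the sources used here. Both deposited arrays had a 2% trimmed mean of 150.04, and this scaling was kept. Of 22626 probe sets that are no controls, 20380 carried a single symbol in GEO's platform annotation (possibly outdated), and 20351 of these matched the GRCm38.p6 gene table. That table gave names, chromosomes and the gene ends by which promoter windows were chosen. No genome build is named for the arrays.

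The brightest probe set stood for its gene. Signals below the 40th percentile of their array were raised to it, log2 ratios were taken, and counts use a threshold of 2-fold. No test exists with 1 array per genotype, so none was run, and the number of arrays limits the precision. The members and lists were chosen with earlier results of these data known. Named are all members, Ubr2 and, from the lists of other piRNA pathway and of other chromatoid body genes, those past 2-fold or at the floor on 1 array and the 3 closest to 0. Cell type marker lists are given by counts and medians; all other genes, markers included, were named after their values were seen. The SD of 1 probe set came from the 2 brightest probe sets of 3040 genes, as a scaled median absolute difference. The alternatives were quantile normalization, loess (span 0.3), scaling on array medians or spike-ins, floors at the 25th or 60th percentile, a pseudocount of 10 without floor, averaging a gene's probe sets, and dropping probe sets shared between transcripts. Calculations used Python 3.11.15, pandas 2.3.3 and statsmodels 0.14.6 and were tested on simulated data.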

Additional observations from a re-analysis of the deposited data

How the results depend on the processing

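The count of 3 members at least 2-fold lower was kept under 8 of 9 alternatives and was 4 with spike-in scaling; the count of members at least 2-fold higher was 0 under every alternative run. Spike-in scaling took the median log2 ratio of the members to -1.12, of the other piRNA genes to -0.56 and of the other chromatoid body and germ cell RNA genes to -0.47, and gave 528 genes lower and 7 higher, since it lowers ratios by 0.35. The number of genes at least 2-fold lower, 285 as reported, was 152 of 5788 when the 60th percentile was the floor, where fewer genes are compared. It was 402 of 9802 with a floor at the 25th percentile, where more are compared, and 315 with loess. The number at least 2-fold higher, 28 as reported, was 132 under a floor at the 25th and 8 under one at the 60th percentile, and 17 each with loess and with a pseudocount; the cause was not tested. At 1.5-fold 624 genes were lower and 344 higher, and at 3-fold 121 and 3. The median of the other piRNA genes, -0.21 as reported, was -0.32 with quantile normalization and -0.34 with loess. It was -0.04 when probe sets shared between transcripts were dropped. Dropping those probe sets took the median of the other chromatoid body and germ cell RNA genes from -0.11 to 0.04. Genes with no other probe set were lost from these lists, Stk31, Prmt5 and Morc1 from the first and Ybx2, Ddx20 and Xrn1 from the second. Both medians after dropping are thus over fewer genes. Each member was read by 1 probe set, so the choice of probe sets could not move it. No paired analysis was possible because each genotype has 1 array. Signals near the floor, such as that of Ago2, limit what their ratios show.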

Other observations

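Over the 231 compared genes with a promoter window that were at least 2-fold lower in UBR2-/-, AACTG on either strand was in 99 windows (42.9%), against 2309 of 6423 (35.9%) of the compared genes that were not. The share was 44.8% over all 27025 genes with a window, and 32.6% over compared genes with a CpG ratio of at least 0.6. The median CpG ratio was 0.71 for the lower genes and 0.79 for those that were not, and the part of composition in these shares was not tested. CACGTG was in 21 of the 231 (9.09%) and in 710 of the 6423 (11.1%). CACGTG was in 1 of 9 windows among the other piRNA pathway genes and in 1 of 17 among the other chromatoid body and germ cell RNA genes. These shares are descriptions, and no test was run on them. The windows of Mael and Tdrkh, which had no probe set under the rule, held CACGTG in Mael at position 28 and none in Tdrkh.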
